A study of Rattus norvegicus with 4 samples.

Results

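High glucose was compared with normal glucose after 24 h in primary neonatal cardiomyocytes, with 1 library on each side, so 2 of the 4 libraries of the series. The unit described is the long non-coding RNA (lncRNA) transcript, and the tables of the 2 libraries were joined on the transcript identifier, with an unlisted transcript taken as 0. Of 17934 transcripts listed in any library, 7321 had a mean of at least 1 FPKM (reads per kilobase of transcript, scaled to the size of the library) over the 4 libraries and were measured. The cells were isolated from Sprague-Dawley pups (1 to 2 days old). High glucose medium held 33 mmol/l glucose. Normal glucose medium held 5 mmol/l glucose, with mannitol added to 28 mmol/l so that the osmolality matched. Both media were M199 with 2 mM carnitine, 5 mM creatine and 5 mM taurine. The same media after 48 h, again 1 library each, served to show which early differences were still there. The labels do not say how many rats or cultures stand behind a library. Protein-coding genes, among them the defining markers of cardiomyocytes and of fibroblasts, were not analysed here, so the labelled cell type was not checked. With 1 library a side there is no replicate check, no p-value is given, and intervals cover counting error only.

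LncRNAs are transcribed like messenger RNAs, and many are spliced, but they are not known to code for proteins. Some act on chromatin near their own gene, some bind proteins or other RNAs, and for most of those in catalogues such as NONCODE no role is known. In the heart several have been linked to hypertrophy and cell death, and high glucose is used on cardiomyocytes as a model of the stress of diabetes. The tables name no genes, so each transcript is identified by its catalogue entry or its rn6 coordinates (rn6 is a build of the rat genome), and none could be assigned a role.

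The total behind the values, recovered from count, length and FPKM, was lowest of the 4 libraries for normal glucose at 24 h, at 11877895, and highest for high glucose at 24 h, at 15654067. Levels of a transcript are given in CPM, the read count scaled by that total, and 1 read was worth 0.0842 CPM under normal and 0.0639 CPM under high glucose. The median measured transcript had 29 reads in the normal glucose library and 37 in the high glucose library. In bulk RNA, fewer cells that express a transcript and less of it per cell cannot be told apart.

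Most measured lncRNA transcripts stood at similar levels in both media at 24 h. On the scale of log2 (CPM + 1), 89.2% lay within 1.5-fold and the median log2 ratio of high over normal glucose was -0.04. Those at least 2-fold apart numbered 358, or 4.89% of the measured transcripts, with 171 higher in high glucose (2.34%) and 187 lower (2.55%). The transcripts higher in high glucose had a median of 0.505 CPM under normal and 5.05 CPM under high glucose. Those lower had the mirror image, their median going from 5.81 CPM under normal to 0.575 CPM under high glucose. These medians, taken library by library, were thus low in one library and modest in the other. On log2 (CPM + 1), 235 of the 358 were 2-fold to 4-fold apart. A stricter rule asked that the whole 95% counting interval of the ratio, taken without the pseudocount, lie beyond 2-fold. It was met by 302 transcripts, or 4.13%, with 140 higher (1.91%) and 162 lower (2.21%), and 288 met both rules. The count depends on the pseudocount: with 0.25 CPM in place of 1 CPM there were 280 higher and 315 lower, and with 4 CPM there were 65 and 83. Values lay densely around the 2-fold limit, with 51 transcripts at a log2 size of 1 to 1.1 and 53 at 0.9 to 1. The filter has a similar edge, with a lowest mean of 1.0005 FPKM inside and a highest of 0.999 FPKM outside. It also favours differences: 87 of the 358 reached the mean of 1 FPKM through their higher 24 h library and averaged less than 1 FPKM over the other 3. Among the 6912 transcripts that averaged at least 1 FPKM over those other 3 libraries, 271 (3.92%) were at least 2-fold apart at 24 h.

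**Figure D1:**
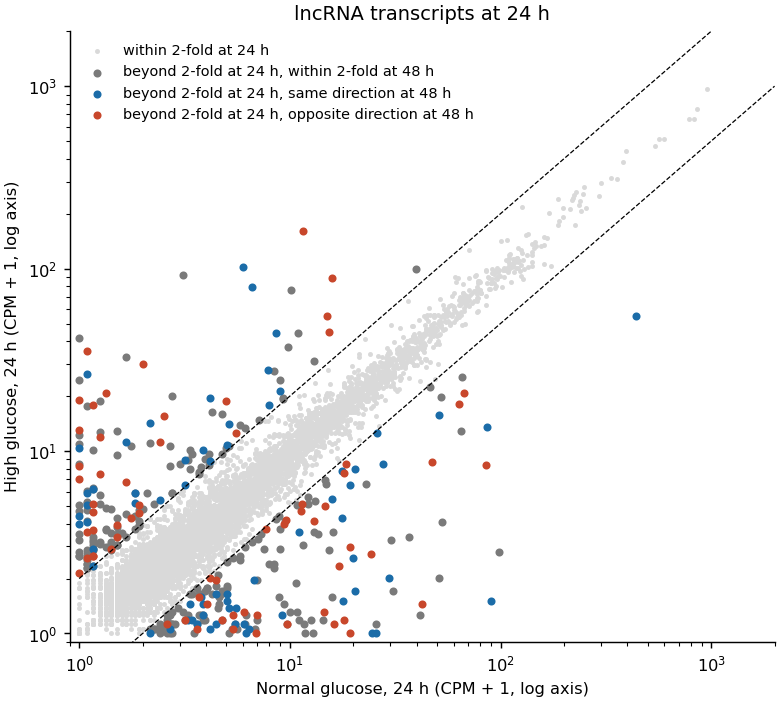
Level of each measured transcript in normal (x axis) and high glucose (y axis) at 24 h, in CPM + 1 on log axes; dashed lines mark 2-fold. Grey, blue and red points are the 358 beyond 2-fold at 24 h, coloured by their place at 48 h, and most of them lie close to one of the axes, with few reads in 1 library.

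Early differences were more frequent among long transcripts. Of the 1522 transcripts under 500 nt, 52 were at least 2-fold apart (3.42%). The shares were 158 of 3240 (4.88%) at 500 to under 1000 nt, 86 of 1762 (4.88%) at 1000 to under 2000 nt and 62 of 797 (7.78%) at 2000 nt or more. By the interval rule they were 3.61%, 3.95%, 3.69% and 6.78%. Both directions took part, with 30 of the long transcripts higher and 32 lower, and the median log2 ratio lay between -0.04 and -0.03 in the 4 classes. These class differences have no test, since transcripts of 1 library are not replicates.

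Long transcripts collect more reads, so the classes were also set side by side at like counts, by the interval rule. Among transcripts with a mean 24 h count of 20 to under 100, those beyond 2-fold were 18 of 428 (4.21%) under 500 nt, 67 of 1558 (4.30%) at 500 to under 1000 nt, 35 of 997 (3.51%) at 1000 to under 2000 nt and 23 of 190 (12.1%) at 2000 nt or more. With 100 to under 500 reads the long class had 21 of 388 (5.41%), beside 5.56%, 4.68% and 3.38% in the shorter ones. With 500 reads or more it had 10 of 213 (4.69%), beside 0 of 12, 3 of 40 and 3 of 75. At a mean of 20 FPKM or more the long class had the lowest share, 1.54%, beside 5.41%, 6.83% and 4.42%. In each lower FPKM class it had the highest. The higher share of the long class was thus seen among long transcripts with few reads for their length.

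Spliced transcripts, whose span in the genome exceeds their length, also differed more often than those in a single block. In all, 235 of 4018 spliced (5.85%) and 123 of 3303 single-block transcripts (3.72%) were at least 2-fold apart on log2 (CPM + 1). At 2000 nt or more this was 35 of 308 spliced (11.4%) and 27 of 489 single-block transcripts (5.52%). Spliced transcripts that overlapped another listed transcript had 143 of 2037 (7.02%), and spliced transcripts alone at their locus 92 of 1981 (4.64%). Single-block transcripts had 108 of 2816 (3.84%) when alone at their locus and 15 of 487 (3.08%) when they overlapped another. By the interval rule 4.85% of spliced and 3.24% of single-block transcripts lay beyond 2-fold. Among those alone at their locus the interval rule gave 3.53% of spliced and 3.55% of single-block transcripts, whereas among those overlapping another it gave 6.14% and 1.44%. At 48 h, in the other pair of libraries, the unadjusted order by length was the same. The share ran from 6.50% under 500 nt to 9.66% at 2000 nt or more, beside 7.17% of all measured transcripts. This order did not hold in each FPKM class. At 1 to 2 and 2 to 5 FPKM the long class had the highest 48 h share, 13.2% and 17.0%. At 5 to 20 FPKM the share fell with length, from 13.3% under 500 nt to 5.99% at 2000 nt or more. At 20 FPKM or more the long class had the lowest, 3.85%.

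**Figure D2:**
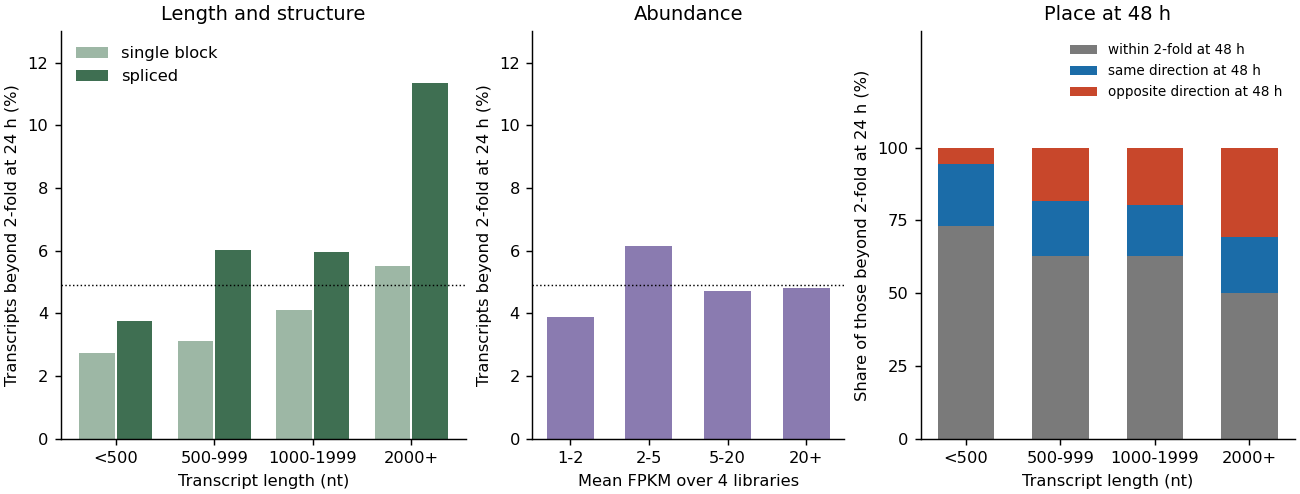
Left and middle, percentage of measured transcripts at least 2-fold apart at 24 h by length (light, single block; dark, spliced) and by mean FPKM over the 4 libraries; the dotted line is the 4.89% of all measured transcripts. Right, place at 48 h of those beyond 2-fold at 24 h, by length: the red share, opposite at 48 h, runs from 5.77% under 500 nt to 30.6% at 2000 nt or more. These shares are not set at like read counts.

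Abundance per length made less difference. The share at least 2-fold apart was 3.87% at a mean of 1 to 2 FPKM, 6.14% at 2 to 5 FPKM, 4.73% at 5 to 20 FPKM and 4.81% at 20 FPKM or more, and by the interval rule 3.87%, 4.84%, 3.42% and 4.60%. The differing transcripts of 20 FPKM or more were 10 higher and 13 lower out of 478. When the classes were set by the mean FPKM of the 48 h libraries, which the 24 h ratio does not use, the shares were 3.09%, 4.59%, 4.49% and 5.51%. A further 478 transcripts stood under 1 FPKM at 48 h and passed the filter through their 24 h levels, and 75 of these (15.7%) were at least 2-fold apart at 24 h.

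The most abundant transcript that was lower in high glucose is spliced, 905 nt long, and lies on chromosome 10 from 14088182 to 14089332. It had 484 FPKM in normal and 59.6 FPKM in high glucose at 24 h, then 58.2 FPKM and 16.1 FPKM at 48 h. By CPM, high glucose lay 8.13-fold below normal glucose at 24 h, with a 95% counting interval of 7.55 to 8.75, and 3.62-fold below it at 48 h (3.10 to 4.24). The normal glucose library at 24 h was thus far above the other 3, and high glucose was the lower side at both times. Among those higher in high glucose, the most abundant is a single block of 505 nt on chromosome X from 118997894 to 118998398. It had 28.3 FPKM in normal and 87.5 FPKM in high glucose at 24 h, 3.09-fold higher by CPM (2.61 to 3.67), then 92.8 FPKM and 36.7 FPKM at 48 h, 2.52-fold lower (2.19 to 2.92). Next to it came a single block of 1182 nt on chromosome 2 from 187283489 to 187284670. Its FPKM was 12.6 in normal and 74.4 in high glucose at 24 h, then 65.1 and 11.3 at 48 h. Both exchanged sides between the times, with 2 libraries high and 2 low in a crossed arrangement.

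Among transcripts under 500 nt, the highest ratio belonged to a spliced transcript of 408 nt on chromosome 10 from 84682448 to 84688899. It had 1 read in normal and 261 reads in high glucose at 24 h and 1 read in each 48 h library, so it was abundant in a single library of the 4. The lowest ratio in this class belonged to a single block of 448 nt on chromosome 11 from 31813129 to 31813576. Normal glucose had 293 reads and high glucose 2 at 24 h, and at 48 h they had 334 and 384. Here a single library was nearly without the transcript. The highest ratio at 500 to under 1000 nt was that of a single block of 972 nt on chromosome 5 from 144334170 to 144335141, with 4 and 310 reads at 24 h and 472 and 45 reads at 48 h, opposite in direction.

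The differing transcripts were spread over the genome. The measured transcripts fell into 6201 loci, groups of transcripts linked by an overlap of 1 base or more, and the 358 lay in 338 of them. Over the 21 chromosomes with at least 100 measured transcripts, the share at least 2-fold apart ran from 2.87% on chromosome 15 to 7.69% on chromosome X, with a median of 4.48%. Of these chromosomes, 10 had more transcripts higher than lower, 9 had more lower and 2 had equal numbers. Among the uneven ones, chromosome 10 had 12 higher and 27 lower of 618 measured transcripts. Chromosome 16 had 1 and 8 of 231, whereas chromosome 18 had 7 and 2 of 201. Over all measured transcripts 2.34% were higher and 2.55% lower. Of 299 windows of 1 Mb that held any, 249 held a single one. The window with the most, 11 to 12 Mb on chromosome 7, held 4 of its 29 measured transcripts, 3 lower and 1 higher.

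Overlapping transcripts of a locus seldom moved together. At the 719 loci with several measured transcripts, 125 of 1839 transcripts (6.80%) were at least 2-fold apart, and 105 loci held at least 1 of them. When the counts of a locus were summed, 28 of the 719 loci (3.89%) were at least 2-fold apart, and 77 of the 105 lay within 2-fold, 56 of them within 1.5-fold. Loci with a single measured transcript had 233 of 5482 (4.25%). At 19 loci 2 or more transcripts differed, and at 15 of these some were higher and some lower in high glucose. The sum of the locus stayed within 2-fold at 14 of the 15. Opposite differences offset each other in a sum, so the choice of these loci favours that count. Summed per locus over the whole set, 122 loci were higher and 139 lower. The tables do not say how reads shared by overlapping transcripts were assigned, nor give a strand.

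The locus with the widest exchange lies on chromosome 6 from 6696170 to 6709782 and holds a pair of spliced transcripts of 821 nt and 766 nt. The longer had 1003 reads in normal and 115 in high glucose at 24 h, 11.5-fold lower (9.47 to 14.1), and the shorter had 12 and 454 reads, 28.7-fold higher (16.3 to 56.0). At 48 h the longer had 110 reads in normal and 1284 in high glucose, and the shorter 518 and 9. In each library 1 of the pair held most of the reads, the longer in normal glucose at 24 h and high glucose at 48 h, the shorter in the other two. For the summed locus, high glucose was the lower side at 24 h, by 2.35-fold (2.12 to 2.61), and the higher side at 48 h, by 2.15-fold (1.95 to 2.37).

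The second locus by this ranking, on chromosome 2 from 240620154 to 240655863, holds 8 measured transcripts. A transcript of 1135 nt had 345 reads in normal and 35 in high glucose at 24 h, and 371 and 508 at 48 h. A transcript of 753 nt had 1 and 79 reads at 24 h, and 14 and 29 at 48 h. The most covered transcript of the locus, of 2136 nt, had 1552 and 2375 reads at 24 h, and the locus summed to 217.6 CPM under normal and 205 CPM under high glucose. Both transcripts beyond 2-fold were thus minor members of the locus, but the early exchange was not limited to them. The transcript of 1135 nt went from 29.0 to 2.24 CPM, and that of 753 nt from 0.0842 to 5.05 CPM. The most covered transcript went from 130.7 to 151.7 CPM, and its share of the locus from 60.0% to 73.9%.

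A further locus on chromosome 6, from 86785788 to 86812078, was chosen after its values were seen. Its transcript of 4452 nt had 781 reads in normal and 312 in high glucose at 24 h, 3.30-fold lower (2.89 to 3.77), and its transcript of 3645 nt had 166 and 840 reads, 3.84-fold higher (3.25 to 4.56). At 48 h they had 344 and 1080, and 888 and 227. The locus summed to 97.5 CPM under normal and 91.6 CPM under high glucose at 24 h, and to 103 CPM and 110.1 CPM at 48 h, so the summed level was 1.06-fold lower at 24 h (0.984 to 1.15). At 48 h it was higher by 1.07-fold (0.998 to 1.15). Both intervals included 1, while its main members were in opposite places.

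**Figure D3:**
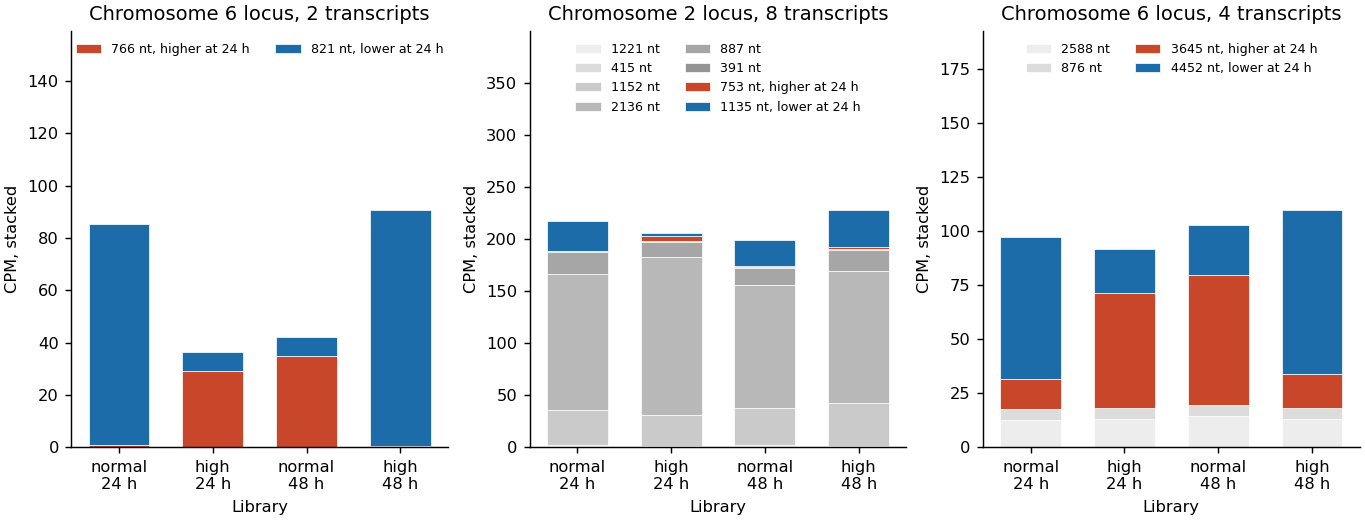
CPM of the measured transcripts of 3 loci, stacked, in the 4 libraries (red, higher in high glucose at 24 h; blue, lower; grey, within 2-fold). At both chromosome 6 loci the blue transcript dominates in normal glucose at 24 h and high glucose at 48 h, and the red one in the other libraries.

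Most transcripts that differed at 24 h lay within 2-fold between the media at 48 h, though for many the counts were too few to place them. Of the 358 transcripts, 222 (62.0%) lay within 2-fold between the media at 48 h, 68 were at least 2-fold apart in the same direction and 68 in the opposite direction. No library entered both ratios. Of the 171 higher at 24 h, 110 lay within 2-fold at 48 h, 28 (16.4%) were again higher and 33 (19.3%) were lower. Of the 187 lower at 24 h, 112 lay within 2-fold, 40 (21.4%) were again lower and 35 (18.7%) were higher. Over all measured transcripts, the 48 h shares beyond 2-fold were 2.85% higher and 4.32% lower. Among the 6963 within 2-fold at 24 h, 146 were higher and 243 lower (3.49%) at 48 h. An early difference thus went with a more frequent later difference, in either direction, and the later direction was near evenly divided.

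Of the 222 that were no longer 2-fold apart, 169 lay within 1.5-fold at 48 h, and the 48 h counting interval of 140 included 1. That interval, taken without the pseudocount, lay wholly inside 2-fold for 55 and included a 2-fold limit for 164. For the other 3 it lay wholly beyond 2-fold, so these counted as within 2-fold only on the scale of log2 (CPM + 1). 77 of the 222 were among the 87 transcripts that passed the filter through their higher 24 h library. Without those 87, 145 lay within 2-fold at 48 h, 64 were in the same direction and 62 in the opposite one.

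**Figure D4:**
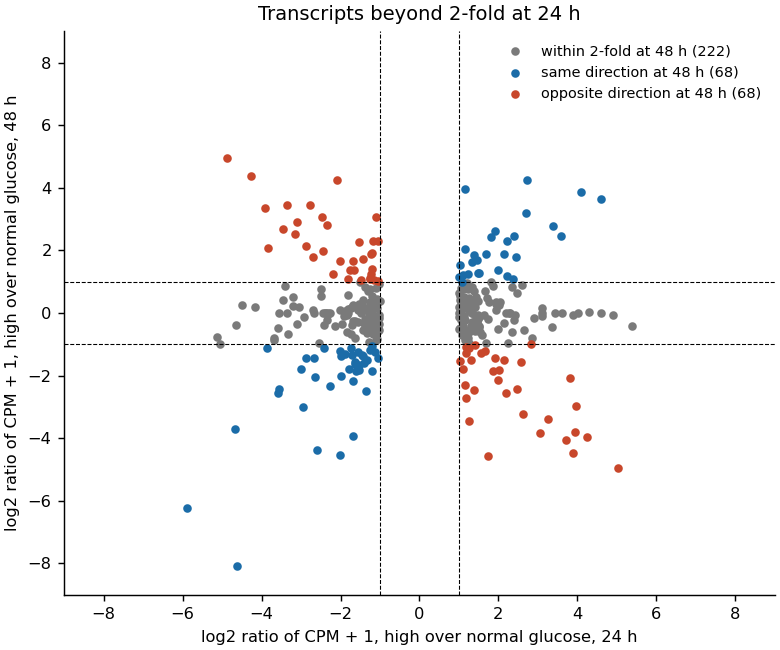
Log2 ratio of CPM + 1, high over normal glucose, at 24 h (x axis) and 48 h (y axis) for the 358 transcripts beyond 2-fold at 24 h; dashed lines mark 2-fold. The 68 red points in the opposite corners equal in number the 68 blue points in the same-direction corners, and 222 grey points lie between the horizontal lines.

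Early differences of at least 4-fold lay within 2-fold at 48 h less often than smaller ones. Sizes were not compared at like counts. The share within 2-fold at 48 h also fell with the mean 24 h count, from 61 of 79 (77.2%) under 20 reads to 5 of 16 at 500 or more. Of the 235 transcripts 2-fold to 4-fold apart, 161 (68.5%) lay within 2-fold at 48 h and 35 (14.9%) were opposite. Of the 67 that were 4-fold to 8-fold apart, 32 (47.8%) lay within 2-fold. Of the 56 at least 8-fold apart, 29 (51.8%) lay within 2-fold, 10 (17.9%) kept their direction and 17 (30.4%) were opposite. By length, 38 of the 52 differing transcripts under 500 nt lay within 2-fold at 48 h and 3 were opposite, whereas at 2000 nt or more 31 of 62 lay within 2-fold and 19 were opposite. The opposite share also rose with the mean 24 h count, from 8 of 79 (10.1%) under 20 reads to 6 of 16 (37.5%) at 500 or more. At 20 to under 100 reads it still rose with length, from 2 of 21 (9.52%) under 500 nt to 7 of 27 (25.9%) at 2000 nt or more. At 100 to under 500 reads there was no such order. The length classes, from short to long, had 0 of 5, 9 of 24 (37.5%), 2 of 23 (8.70%) and 8 of 25 (32.0%). These are small numbers of transcripts. By abundance, those within 2-fold at 48 h were 82 of 101 (81.2%) at 1 to 2 FPKM, 90 of 147 (61.2%) at 2 to 5 FPKM, 37 of 87 (42.5%) at 5 to 20 FPKM and 13 of 23 (56.5%) at 20 FPKM or more. Pseudocount and filter both act on the low class.

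Both 24 h libraries contributed to the differences that lay within 2-fold at 48 h. A library was said to stand apart when it was at least 2-fold above both 48 h libraries, or 2-fold below both, while the other 24 h library was within 2-fold of both. For the 222 transcripts this was the high glucose library in 58, the normal glucose library in 58 and neither in 106. The tie depends on the scaling. With TMM or with median-of-ratios factors, high glucose stood apart in 65 and normal glucose in 55 of those within 2-fold at 48 h. Of the 110 higher at 24 h, high glucose stood apart in 33 and normal glucose in 22, and of the 112 lower, in 25 and 36. In both directions the library on the high side thus stood apart more often, and the filter favours such transcripts. At 48 h the mean log level of both media lay between the 24 h levels for 153 of the 222, above both for 24 and below both for 45.

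NONRATT008254.2 (1339 nt, spliced from 52667957 to 52671441 on chromosome 13) had the highest early ratio among those within 2-fold at 48 h. It was not listed in normal glucose at 24 h and had 635 reads in high glucose, 601 in normal and 423 in high glucose at 48 h. Normal glucose at 24 h was thus the only library of the 4 without it, and the level there was at least 161-fold lower than in high glucose, against a floor of 3 counts per library. It shared its locus with 7 other listed transcripts, and these values describe the transcript, not the locus. NONRATT023866.2 (3442 nt in 1 unspliced block, 165991076 to 165994517 on chromosome 5) was high in 1 library alone. It had 25 reads in normal and 1429 reads in high glucose at 24 h, then 7 and 6 reads at 48 h. High glucose at 24 h, at 91.3 CPM, exceeded normal glucose 43.4-fold (29.3 to 67.2), and the 48 h interval included 1. No other listed transcript overlapped it.

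On the lower side, NONRATT005600.2 (733 nt, spliced from 56527323 to 56531443 on chromosome 10) had 1156 reads in normal and 28 in high glucose at 24 h, and 2214 and 1244 at 48 h. High glucose at 24 h stood below the other 3 libraries, 54.4-fold below normal glucose at 24 h (37.4 to 82.3), and the 48 h libraries were 1.70-fold apart in the same direction (1.59 to 1.83). NONRATT003336.2 (536 nt, spliced from 213746990 to 213751373 on chromosome 1) had 483 and 4 reads at 24 h, 159-fold lower in high glucose (61.8 to 586), and 660 and 311 reads at 48 h. At 48 h it was lower by 2.03-fold (1.77 to 2.33) without the pseudocount, and its log2 ratio of -0.99 with it lay just inside 2-fold, so its direction was the same and its size far smaller.

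Among those in the same direction at both times, the pairs of libraries repeated each other for most transcripts but not for all. NONRATT007078.2 (3045 nt in 1 unspliced block, 71547851 to 71550895 on chromosome 11) had 59 reads in normal and 1578 in high glucose at 24 h, and 65 and 1093 at 48 h. The folds were 20.3 (15.6 to 26.8) at 24 h and 17.6 (13.7 to 22.9) at 48 h. NONRATT009135.2 (2295 nt in 1 unspliced block, 111574581 to 111576875 on chromosome 13) had 1 and 398 reads at 24 h, and 2 and 187 at 48 h. Both high glucose libraries were above both normal glucose libraries in each case. NONRATT003063.2 (1742 nt in 1 unspliced block, 176940418 to 176942159 on chromosome 1) had 1054 and 8 reads at 24 h, and 1710 and 8 at 48 h. NONRATT004374.2 (718 nt, spliced from 48880225 to 48881896 on chromosome 10) had 280 reads in normal glucose at 24 h and 4006 at 48 h and was not listed in either high glucose library. Its level in normal glucose at 48 h, 269.7 CPM, was above the 23.6 CPM at 24 h, and its early difference was at least 123-fold. Over the 68 kept transcripts, 46 had both media within 2-fold of their own 24 h level at 48 h.

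Transcripts in the opposite direction have a crossed order of the media by definition. The definition does not fix how near the crossed levels lie. For 52 of the 68, normal glucose at 24 h was within 2-fold of high glucose at 48 h, and high glucose at 24 h within 2-fold of normal glucose at 48 h. NONRATT030593.2 (2886 nt, spliced from 71552333 to 71555281 on chromosome X) had 1 read in normal and 537 in high glucose at 24 h, and 610 and 5 reads at 48 h. NONRATT026818.2 (2342 nt, spliced from 70351820 to 70355576 on chromosome 7) was not listed in normal glucose at 24 h and had 281 reads in high glucose, then 235 and 1 at 48 h. High glucose was thus higher by at least 71.1-fold at 24 h, and lower by 225-fold at 48 h (40.0 to 8926). Both had 2 libraries with at least 235 reads and 2 with at most 5.

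NONRATT000490.2 (3122 nt in 1 unspliced block, 82230930 to 82234051 on chromosome 1) had 490 reads in normal and 7 in high glucose at 24 h, and 1 and 456 at 48 h. NONRATT026300.2 (742 nt, spliced from 142239123 to 142243459 on chromosome 7) had 218 reads in normal glucose at 24 h and 280 in high glucose at 48 h and was not listed in the other two. High glucose was lower by at least 95.8-fold at 24 h, and higher by at least 97.5-fold at 48 h. Of these 4, NONRATT000490.2 overlapped no other listed transcript, and the others shared their loci with 3, 2 and 5.

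**Figure D5:**
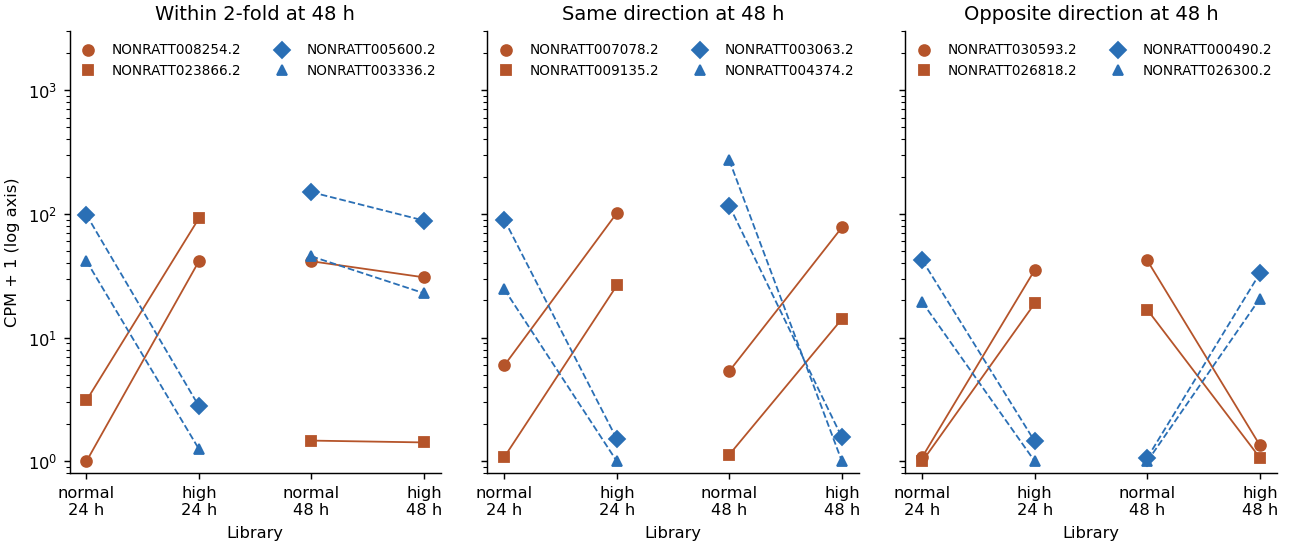
CPM + 1 on a log axis in the 4 libraries for the 12 transcripts named by their place at 48 h; lines join the media of 1 time (orange, higher in high glucose at 24 h; blue, lower). In the left panel the 48 h lines are shallower than the 24 h lines, with NONRATT003336.2 and NONRATT005600.2 still lower in high glucose; in the middle panel they go the same way as at 24 h, and in the right panel the opposite way.

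A group of 61 of the 7321 measured transcripts had at most 3 reads in one 24 h library and at least 50 in the other. These limits were set after the data were seen. High glucose was the high side for 35 and normal glucose for 26. At 48 h, 10 of the first group and 7 of the second had at most 3 reads in both media, so that they were abundant in 1 library of the 4. Such transcripts reach the mean of 1 FPKM mainly through that library, so the filter itself favours this pattern. At least 50 reads in both media at 48 h were found for 2 and 4. The same side was high with the same limits for 3 and 4, and the opposite side for 5 and 6. The 48 h reads of 15 and 5 met none of these limits. Of the 61, 34 (55.7%) overlapped no other listed transcript, beside 65.5% of all measured transcripts, and 26 (42.6%) were in a single block, beside 45.1%.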

How the data were processed

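Alignment software TopHat2 2.1.0, transcript software Cufflinks and the builds rn6 and Rnor_6.0 appear in the submitters' processing notes. The counting tool, strand setting and annotation are not stated in these notes or labels. Per the labels' protocols, libraries were made with a TruSeq Stranded Total RNA kit. Raw read counts per lncRNA transcript were deposited, per the file headers, from 1 read up. The authors' deposited FPKM values stand in a further column. A length column (nt) comes with 1 table, that of normal glucose at 24 h, and 40 measured transcripts outside it got theirs from count and FPKM. Each library total was the median, over transcripts, of the total that count, length and FPKM imply, and 2 transcripts in each 24 h library missed it by over 1%.

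Groups were taken from the sample titles. Ratios were high over normal glucose on log2 (CPM + 1), with the total as divisor and 2-fold as threshold. Intervals of ratios are Clopper-Pearson intervals at 95%, exact given the summed reads of a pair, and they cover counting error only, since PCR copies were not told apart by molecular identifiers. The ratio script was tested on simulated data. Alternatives changed the scaling (TMM factors from edgeR 4.0.16, median-of-ratios factors from DESeq2 1.42.0, equal sums), the pseudocount, the filter and the unit. Transcripts were named by rule. In each 48 h outcome these were the 2 highest and 2 lowest with a mean 24 h count of at least 50. Those within 2-fold at 48 h were ranked by the 24 h ratio. Those kept or opposite at 48 h were ranked by whichever of their 24 h and 48 h ratios was smaller in size. Further rules took the 2 most abundant in each direction and the extremes of each length class. The 2 loci with the widest exchange and the densest 1 Mb window were also taken. Members and rules were chosen with earlier results of these data known. The files name no genes, and 0 identifiers were found in the RefSeq gene table given for assembly GRCr8, so lists of cell type markers and of known lncRNAs gave no match.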

Additional observations from a re-analysis of the deposited data

Results flagged for a closer look

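The direction of the high glucose difference was opposite at 24 h and 48 h, beyond 2-fold both times, for 68 transcripts. With 1 library per group this difference between the times was not tested. Among the named transcripts, the log2 ratio at 48 h minus that at 24 h was -9.99 for NONRATT030593.2, -8.22 for NONRATT026818.2, 9.82 for NONRATT000490.2 and 8.64 for NONRATT026300.2, and these differences were not tested either.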

How the results depend on the processing

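No paired analysis was possible because each group has 1 library, and for the same reason no library could be left out. With TMM factors, size factors or equal sums, with a mean of at least 0.5 FPKM, with no filter and on log2 (FPKM + 1), the counts of transcripts higher, lower, kept, within 2-fold and opposite at 48 h stayed within 1.5 times those reported. A pseudocount of 0.25 CPM gave 280 higher, 315 lower, 132 kept, 343 within 2-fold, 120 opposite and 448 loci. A pseudocount of 4 CPM gave 65, 83, 26, 90, 32 and 112. A mean of at least 5 FPKM gave 48, 62, 33, 50, 27 and 92, and by the interval rule 36 higher and 49 lower. A mean count of at least 50 gave 79, 89, 36 and 83, 137 loci, and by the interval rule 59 and 68. These filters test fewer transcripts. Summed per locus, 41 were opposite, against 68. Calling 24 h differences by the interval, an alternative chosen after seeing the data, left 64 kept, 177 within 2-fold and 61 opposite. Transcripts with few reads limit the precision: at a median of 29 reads in normal glucose, ratios near 2-fold cannot be placed on either side.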
